A study of Mus musculus with 6 samples.

Results

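The solute carriers are membrane proteins that move amino acids, sugars, lactate, metals, nucleotides, vitamins and ions across the plasma membrane and the membranes of organelles. They are grouped into numbered families by sequence, and a family usually shares a kind of substrate. Family 25 sits mostly in the inner mitochondrial membrane and links the matrix with the cytosol, while many carriers of tumour cells bring in glutamine and glucose or export lactate. The genes described here are those whose symbol starts with Slc and a digit and whose mean level over the parental MC38 libraries was at least 5 CPM, counts scaled to a library total of 1000000. That rule was met by 121 genes, of 256 such symbols considered and 24181 genes in the table. A further 2 Slc symbols are not reported here. The members were therefore chosen by their own level in these libraries, and their levels are a description. The lowest members were Slc44a1 (6.55, 7.96 and 3.43 CPM), Slc25a26 (5.36, 7.71 and 4.67 CPM) and Slc44a2 (5.36, 7.21 and 4.67 CPM). Just outside stood Slc27a3 (5.95, 5.72 and 3.12 CPM), Slc12a9 (4.47, 4.73 and 5.30 CPM) and Slc19a2 (3.87, 5.47 and 2.80 CPM).

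MC38 is a mouse colon adenocarcinoma line. The labels describe 6 samples grown in culture in DMEM, 3 of cells that carry STING-N153S, a substituted form of the DNA-sensing adaptor STING, and 3 of parental MC38 cells with the genotype WT and no agent named. Only the parental samples, replicates 1 to 3, were analysed here, so no difference between the genotypes is reported. Expression was measured by bulk sequencing of the 3′ ends of polyadenylated RNA. A 3′-end count reads the end of a transcript and not its length, so levels of different genes were set side by side without dividing by length.

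The parental libraries held 3358908, 4020023 and 3210024 counts. They are numbered as biological replicates in the deposited annotation. Separate cultures are not stated, so p-values measure the spread between these samples, which may be technical. Replication-dependent histone genes took 0.158% of the counts in replicate 3, against 0.331% and 0.320% in replicates 1 and 2, so results on spread are also given without replicate 3. Of 8 epithelial markers listed, the 3 analysed (Krt8, Krt19 and Vil1) averaged 0.0829 to 0.0992 CPM, while the mesenchymal filament gene Vim had 3058 ± 176 CPM (SD, n = 3). Of the 4 mesenchymal markers, Vim, Sparc and Col3a1 were above 5 CPM and Col1a1 averaged 3.58 CPM. The 2 leukocyte markers analysed of 6 listed, Ptprc and Cd68, averaged 0.0992 and 0.925 CPM, and the 3 endothelial markers averaged 0.0992 to 0.385 CPM. The label of an adenocarcinoma line thus stands beside epithelial markers at or near 0. In bulk samples, fewer cells that express a gene and less RNA per cell cannot be told apart.

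Members took 0.924%, 0.942% and 0.948% of all counts in replicates 1 to 3, a mean of 0.938 ± 0.0128% (SD, n = 3). Their mean levels covered a wide range, with 2 members at 1000 CPM or more, 12 at 100 CPM or more, 96 at 10 CPM or more and 25 between 5 and 10 CPM. The median member stood at 22.6 CPM, against 33.2 CPM over all 9022 genes at 5 CPM or more. Counts were concentrated in a few carriers: the 3 highest members, all of family 25, held 42.5 ± 0.189% of the members' counts and the 10 highest 66.5 ± 0.196% (SD, n = 3). In each of the 3 libraries the 10 highest members stood in the same order. Of the 120 pairs of neighbours in the order of mean level, 11 had library ranges that did not overlap, 10 of them among the 12 highest members, so the order below about 100 CPM is mostly within the spread of the libraries.

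**Figure D1:**
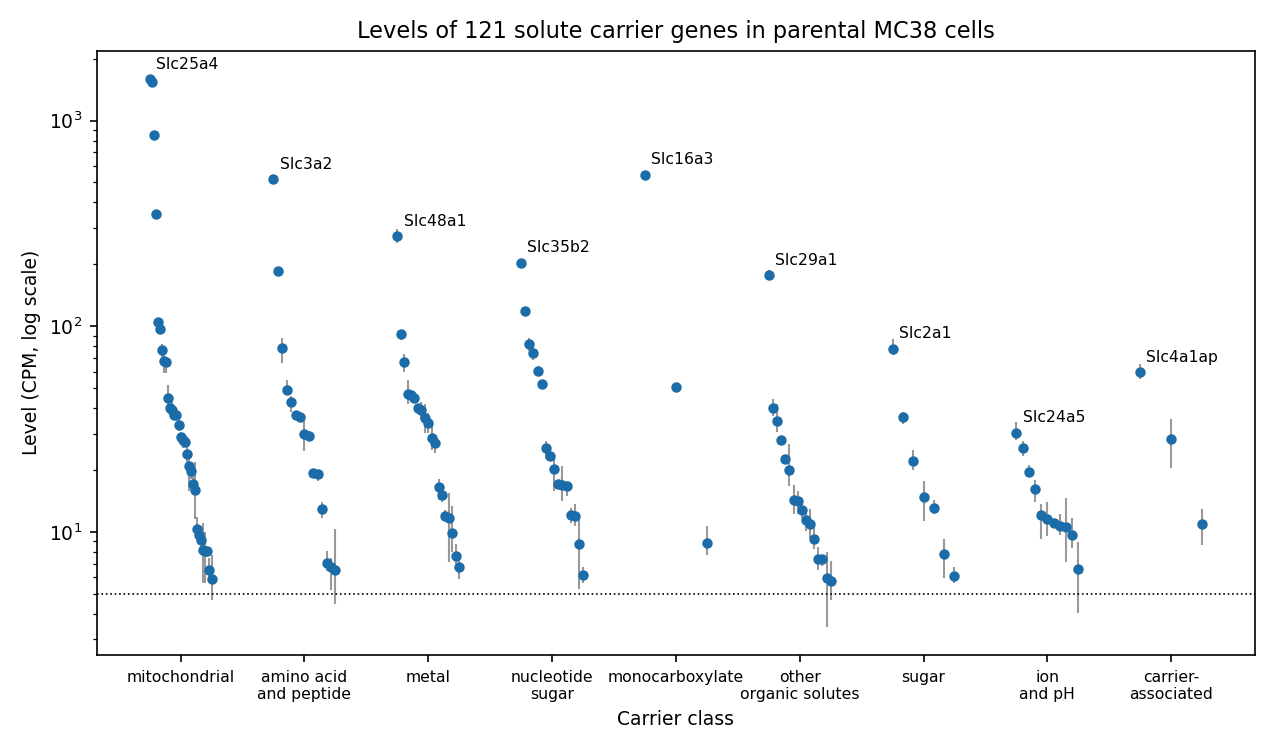
Mean level of each of the 121 members (CPM, log scale) by carrier class, in order of level within a class; grey lines run from the lowest to the highest of the 3 parental libraries and the dotted line marks 5 CPM. The mitochondrial class holds the 3 highest genes, led by Slc25a4 at 1591 CPM, and Slc16a3 stands apart from the rest of its class.

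**Figure D2:**
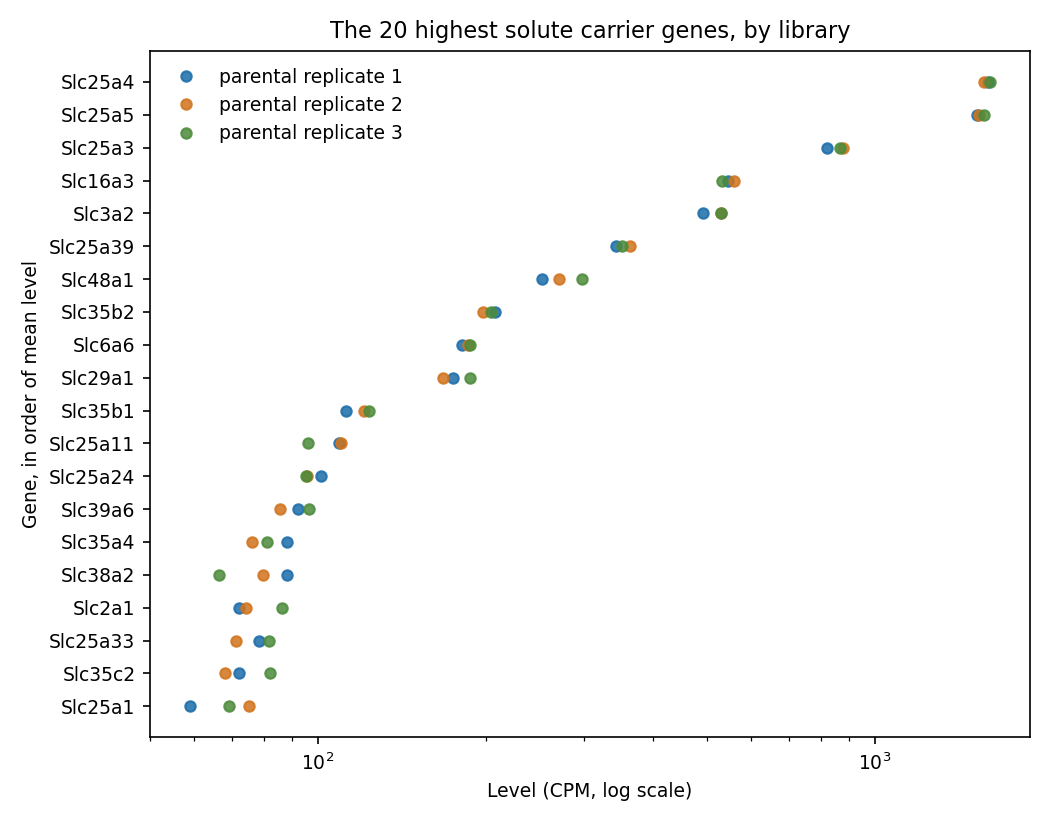
Level of the 20 highest members in each parental library (CPM, log scale), in order of mean level. The points of Slc25a4 and Slc25a5 lie between 1522 and 1607 CPM, apart from Slc25a3 between 820.2 and 876 CPM.

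By class, mitochondrial carriers held 55.8% of the members' summed level, amino acid and peptide carriers 11.5%, metal carriers 9.10%, carriers of nucleotide sugars 8.0%, monocarboxylate carriers 6.45%, carriers of other organic solutes 4.49%, sugar carriers 1.89% and carriers of ions and pH 1.75%. Classes follow the number of the family, so a few members carry something else than the class name says. Symbols that met the rule were 31 of 41 for mitochondrial, 19 of 27 for metal and 16 of 23 for nucleotide sugar carriers. In the amino acid class 15 of 45 symbols met it, in the sugar class 7 of 20, in the monocarboxylate class 3 of 9, among other organic solutes 16 of 47 and among ions and pH 11 of 37. Symbols are those present in the deposited counts, so these are not shares of whole gene families. Of all genes, 37.3% reached 5 CPM. The last 3 members, Slc4a1ap, Slc7a6os and Slc9a3r2, are named after a carrier and are not carriers themselves.

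**Figure D3:**
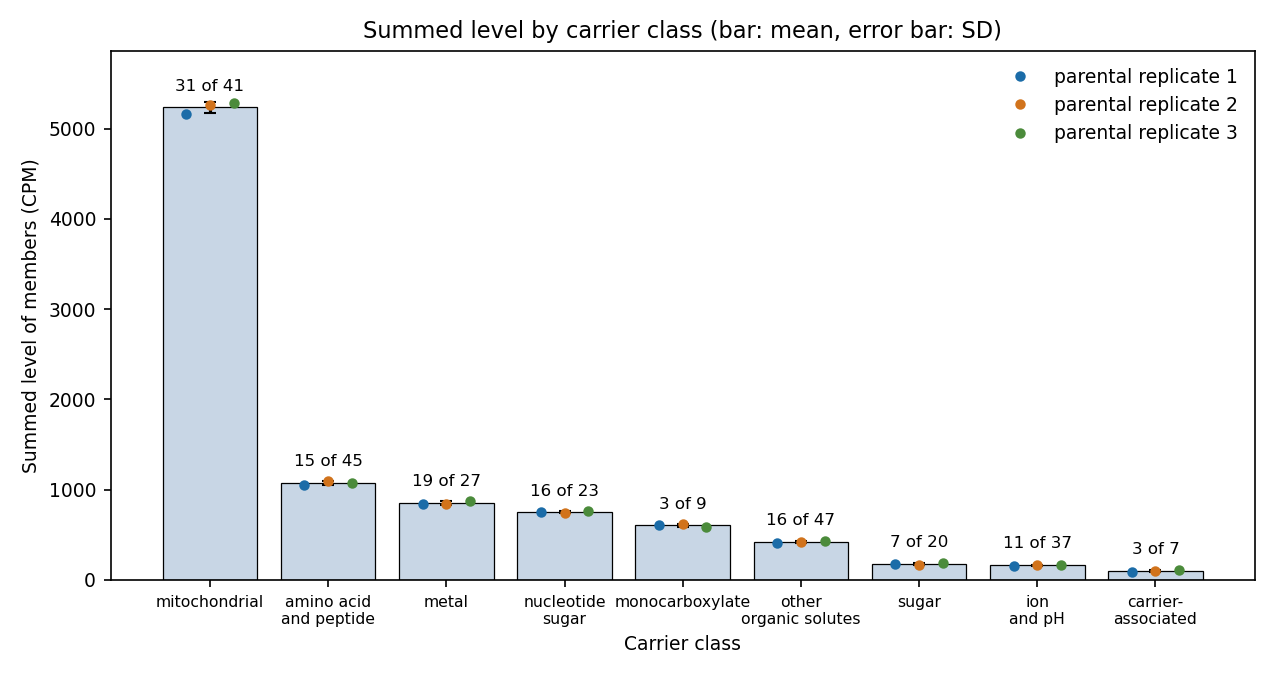
Summed level of the members of each carrier class (CPM); bars are means over the 3 parental libraries, error bars are SD, points are the libraries, and the text above a bar gives members of all symbols considered. The mitochondrial sum of 5233 CPM exceeds that of every other class plotted, and the points of a class lie close together.

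Mitochondrial carriers were led by Slc25a4 and Slc25a5, adenine nucleotide translocases that exchange ATP of the matrix for ADP of the cytosol. Slc25a4 lies at chromosome 8, 46207168 to 46211062 of GRCm38. Its counts were 5357, 6318 and 5160, which are 1595, 1572 and 1607 CPM, and it ranked 73rd of all genes in the table. Slc25a5 (chromosome X, 36795597 to 36798808) had 5113, 6172 and 5041 counts, or 1522, 1535 and 1570.4 CPM. The levels were close, but Slc25a4 was above Slc25a5 in 3 of 3 libraries, at ratios of 1.05, 1.02 and 1.02 in replicates 1 to 3. In this and the later pairs the gene with the higher mean level was set over the other, so the direction of a ratio follows from these same counts. The mean ratio was 1.03 ± 0.0139 (SD, n = 3), and the pooled ratio had an exact (Clopper-Pearson) 95% interval of 1.01 to 1.05, for counting error alone. That order is uncertain, because 26.2% of the 50-base stretches in the last 500 bases of Slc25a5 transcripts also occur in transcripts of other genes, and the treatment of reads that match several genes is unknown. Those other genes, the pseudogene Slc25a5-ps and the predicted genes Gm5560 and Gm5529, had 1.53, 2.56 and 1.31 CPM on average. No such stretch of the end of Slc25a4 was found elsewhere.

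To let the upstream sequences of these paired carriers be compared, the 250 reference bases before a RefSeq start (GRCm38.p6) are given for Slc25a4 (chr8:46211063-46211312, minus strand) and Slc25a5 (chrX:36795347-36795596, plus strand), with capitals for matches to any of the motifs described further on.
Slc25a4: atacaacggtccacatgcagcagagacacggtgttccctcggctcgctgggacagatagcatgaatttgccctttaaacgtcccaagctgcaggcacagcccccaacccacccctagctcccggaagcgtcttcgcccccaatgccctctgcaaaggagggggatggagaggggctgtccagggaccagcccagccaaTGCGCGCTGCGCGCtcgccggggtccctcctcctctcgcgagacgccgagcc
Slc25a5: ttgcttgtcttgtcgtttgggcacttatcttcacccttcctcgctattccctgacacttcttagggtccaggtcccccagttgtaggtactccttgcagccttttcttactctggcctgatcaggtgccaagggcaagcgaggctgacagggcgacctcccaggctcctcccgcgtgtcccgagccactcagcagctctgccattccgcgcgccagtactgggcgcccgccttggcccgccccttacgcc
The capitals in Slc25a4 are a pair of adjoining TGCGCNC matches, and the Slc25a5 window held no match to the motifs searched.

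The phosphate carrier Slc25a3 (chromosome 10, 91116574 to 91124046) followed with 820.2, 876 and 864 CPM, and Slc25a39, which brings glutathione into mitochondria, with 343, 363 and 351 CPM. These 4 genes were in the same order in every library, with no overlap between neighbours. Slc25a11, the exchanger of malate and 2-oxoglutarate, had 109, 110.2 and 95.9 CPM. The ATP-Mg/phosphate carrier Slc25a24 had 97.4 ± 3.28 CPM and Slc25a33, a carrier of pyrimidine nucleotides, 77.0 ± 5.35 CPM (SD, n = 3). The citrate carrier Slc25a1 stood at 58.9, 75.1 and 69.2 CPM, with its lowest level in replicate 1. The peroxisomal member of the family, Slc25a17, had 66.8 ± 6.29 CPM (SD, n = 3).

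In the malate-aspartate shuttle Slc25a11 works with an aspartate-glutamate carrier. The aspartate-glutamate carriers Slc25a12 and Slc25a13 had 34.8, 41.0 and 35.5 CPM and 36.6, 36.3 and 38.3 CPM. Their ranges overlapped each other and lay below that of Slc25a11. Of the mitoferrins, which import iron, Slc25a28 had 41.1, 41.8 and 52.0 CPM and Slc25a37 15.8, 20.4 and 15.3 CPM. Slc25a28 was above Slc25a37 in every library, but 39.4% of the 50-base stretches of the end of Slc25a37 are shared with another annotated gene, so its count is uncertain. Carriers of cofactors included Slc25a51 for NAD at 29.0 ± 1.59 CPM and Slc25a26 for S-adenosylmethionine at 5.91 ± 1.59 CPM (SD, n = 3). Slc25a20, which exchanges carnitine for acylcarnitine in fatty acid oxidation, had 27.4 ± 1.15 CPM, Slc25a38, which imports glycine for haem synthesis, 39.1 ± 4.52 CPM, and Slc25a22, a glutamate carrier, 20.9 ± 4.46 CPM (SD, n = 3). Slc25a32, which brings folates into the matrix, had 24.0 ± 3.57 CPM, Slc25a44, for branched-chain amino acids, 19.7 ± 1.88 CPM, and Slc25a15, for ornithine, 10.3 ± 1.36 CPM (SD, n = 3). The remaining members of family 25 lay between 6.53 CPM (Slc25a29, for basic amino acids) and 40.1 CPM (Slc25a10, the dicarboxylate carrier). Carriers with other symbols that work beside them were also counted. The subunits of the mitochondrial pyruvate carrier, Mpc2 and Mpc1, had 139 ± 6.50 CPM and 22.8 ± 1.91 CPM, and the outer membrane channels Vdac1, Vdac2 and Vdac3 had 199 ± 9.80 CPM, 280.0 ± 8.74 CPM and 218 ± 3.50 CPM (SD, n = 3).

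Among amino acid carriers Slc3a2 stood highest. It encodes the CD98 heavy chain, which is no transporter alone and carries light chains of family 7 to the cell surface. Slc3a2 (chromosome 19, 8706882 to 8723369) had 1652, 2131 and 1699 counts, equal to 492, 530.1 and 529 CPM, which was 48.1% of the summed level of its class. Its light chains described here were lower in every library: Slc7a6, which exchanges basic for neutral amino acids, had 35.1, 38.8 and 36.8 CPM, and Slc7a5 (LAT1), which takes up large neutral amino acids, 31.0, 27.6 and 29.0 CPM. Slc7a6 was above Slc7a5 in 3 of 3 libraries, at ratios of 1.13, 1.41 and 1.27 and a mean of 1.27 ± 0.135 (SD, n = 3), with an exact 95% interval of the pooled ratio of 1.09 to 1.48.

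The taurine carrier Slc6a6 (chromosome 6, 91684048 to 91759063) had 182, 186 and 188 CPM, a range of few CPM between libraries. Carriers that take up glutamine and other neutral amino acids came next. Slc38a2 (SNAT2) had 88.1, 79.9 and 66.4 CPM, Slc1a5 (ASCT2) 46.1, 54.7 and 46.1 CPM and Slc38a1 (SNAT1) 38.1, 45.8 and 43.9 CPM. Slc38a2 was above Slc1a5 in 3 of 3 libraries at ratios of 1.91, 1.46 and 1.44, with an exact 95% interval of the pooled ratio of 1.42 to 1.77. The ratio in replicate 1 lay above that interval, and replicate 1 also had the highest level of Slc38a2. Slc6a8, for creatine, had 36.3 ± 1.34 CPM and Slc7a1, for arginine and lysine, 30.0 ± 5.27 CPM (SD, n = 3). Slc15a4, a carrier of histidine and peptides in endolysosomes, had 19.3 ± 0.510 CPM (SD, n = 3). The other members of the class, Slc38a10, Slc6a15, Slc36a4, Slc38a7 and the glycine carrier Slc6a9, lay between 6.51 and 19.1 CPM.

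Lactate carriers showed a wide difference within a small family. Slc16a3 (MCT4), which exports lactate in glycolytic cells, had 1830, 2245 and 1708 counts, or 545, 558 and 532 CPM, and Slc16a1 (MCT1), which carries lactate and pyruvate in either direction, 178, 200 and 159 counts, or 53.0, 49.8 and 49.5 CPM. Slc16a3 was higher in 3 of 3 libraries at ratios of 10.3, 11.2 and 10.7, a mean of 10.7 ± 0.472 (SD, n = 3), and an exact 95% interval of the pooled ratio of 9.86 to 11.8. It held 90.1% of the summed level of its class. Slc16a10, for aromatic amino acids, had 7.74, 10.7 and 8.10 CPM. Both lactate carriers need a chaperone to reach the surface. Bsg (basigin) had 702, 660.2 and 626 CPM and Emb (embigin) 32.2, 28.6 and 26.5 CPM. Bsg varied between the libraries (adjusted p = 0.0151, chi-square test on counts, Benjamini-Hochberg over all genes), with its highest level in replicate 1. By the same chi-square test the adjusted p was 0.8 for Slc16a3 and 0.926 for Slc16a1. Over the libraries Bsg had 7022 counts, Slc16a3 5783 and Slc16a1 537, and the test has less power at fewer counts. Ldha, the enzyme that makes lactate, had 3401 ± 19.8 CPM, and Ldhb 20.1 ± 1.78 CPM (SD, n = 3).

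Reference bases before a start are given for this pair because it differs most in level among the pairs with at least 100 counts of each gene in every library. Slc16a3 is on the plus strand at chr11:120948817-120949066 and Slc16a1 on the plus strand at chr3:104638414-104638663 (GRCm38.p6).
Slc16a3: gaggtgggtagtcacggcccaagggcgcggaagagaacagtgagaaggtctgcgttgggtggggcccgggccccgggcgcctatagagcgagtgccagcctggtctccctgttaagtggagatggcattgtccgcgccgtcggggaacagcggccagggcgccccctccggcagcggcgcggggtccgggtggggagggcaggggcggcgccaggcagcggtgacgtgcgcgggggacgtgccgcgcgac
Slc16a1: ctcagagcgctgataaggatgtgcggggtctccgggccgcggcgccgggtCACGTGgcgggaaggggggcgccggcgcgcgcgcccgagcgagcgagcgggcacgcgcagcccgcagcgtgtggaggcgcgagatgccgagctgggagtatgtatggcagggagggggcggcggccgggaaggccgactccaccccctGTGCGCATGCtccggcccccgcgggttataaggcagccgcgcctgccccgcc
Capitals, all in Slc16a1, mark CACGTG and a longer run in which matches to TGCGCNC and GCNTGCGC overlap on the opposite strand. The Slc16a3 window held none of the motifs searched. It lies within the span of the gene, which begins at 120948484, and bases before that outer start were not searched. The Slc16a1 window lies directly before the span of its gene, so the windows are not alike in position.

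Sugar carriers were led by Slc2a1 (GLUT1), the basal glucose carrier of most cells, at 242, 299 and 277 counts, or 72.0, 74.4 and 86.3 CPM (chromosome 4, 119108745 to 119137330). Slc2a3 (GLUT3), which is not a member, had 8, 7 and 7 counts, so the ratio of Slc2a1 to Slc2a3 was 30.2, 42.7 and 39.6, with an exact 95% interval of the pooled ratio of 24.4 to 59.7. In every library Slc2a1 was the higher by a wide margin, though few counts of Slc2a3 stand behind the ratio. Slc50a1, a sugar carrier of the SWEET family, had 36.6, 33.6 and 38.3 CPM and Slc5a3, which takes up myo-inositol, 25, 19.9 and 21.2 CPM. Slc5a6, a carrier of biotin and pantothenate, had 11.3, 15.4 and 17.8 CPM and Slc37a4, which moves glucose-6-phosphate into the endoplasmic reticulum, 12.5, 12.2 and 14.3 CPM. Slc37a3 and Slc2a6 had 7.77 and 6.09 CPM. The hexokinases that trap the glucose had 39.4 ± 5.51 CPM for Hk2 and 14.4 ± 1.5 CPM for Hk1 (SD, n = 3).

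**Figure D4:**
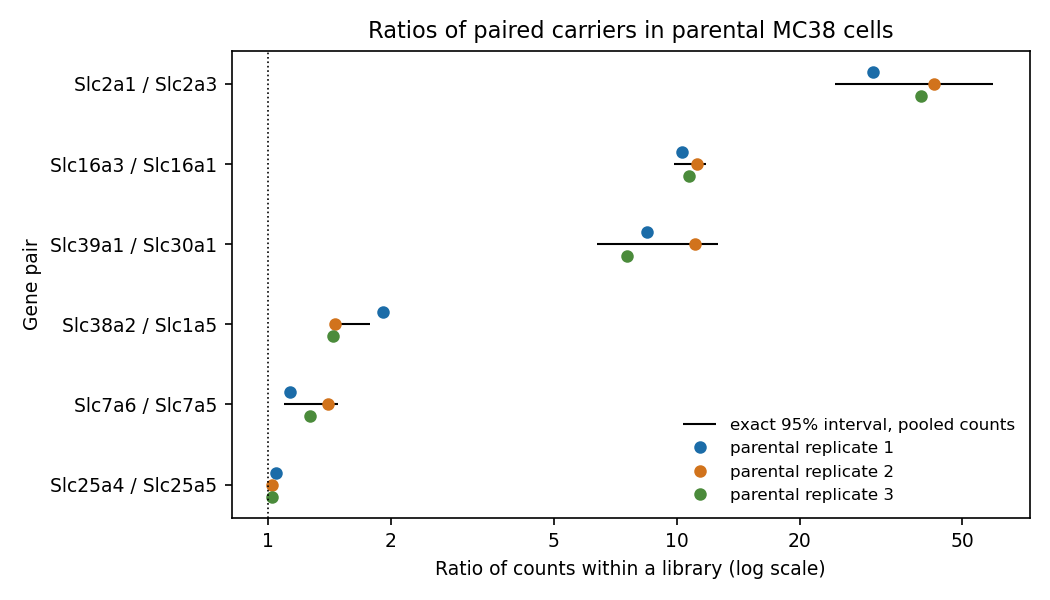
Ratio of the counts of paired carriers in each parental library (log scale); points are the libraries and black lines the exact 95% interval of the pooled ratio. In each pair the gene with the higher mean level was set over the other, so the direction of a ratio follows from these same counts. The points run from 1.02 for Slc25a4 over Slc25a5 to 42.7 for Slc2a1 over Slc2a3.

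Metal carriers were mostly counted at moderate levels, with a class median of 33.7 CPM. Slc48a1, which moves haem out of endolysosomes, was the highest at 849, 1090 and 955 counts, or 253, 271 and 298 CPM, with replicate 1 lowest and replicate 3 highest. Slc11a2 (DMT1), which carries ferrous iron, had 67.0, 59.7 and 73.2 CPM, and Slc31a1 (CTR1), the copper importer, 43.2, 48.3 and 46.7 CPM. Tfrc, the transferrin receptor that brings iron to Slc11a2 in endosomes, had 152 ± 11.7 CPM (SD, n = 3).

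Zinc is carried into the cytosol by family 39 (ZIP) and out of it by family 30 (ZnT). Of the symbols present in the deposited counts, 9 of 12 of family 39 and 5 of 6 of family 30 were members. Summed over members, family 39 had 272 ± 7.46 CPM and family 30 175 ± 13.6 CPM (SD, n = 3). The highest importers were Slc39a6 at 92.3, 85.6 and 96.3 CPM and Slc39a13, which releases zinc from vesicles, at 42.0, 44.3 and 54.5 CPM. The highest of family 30 were Slc30a7 at 43.8, 44.8 and 45.8 CPM and Slc30a4 at 38.7, 42.8 and 35.5 CPM, both of which move zinc into compartments of the cell, and Slc30a7 ranged over few CPM. Slc39a1, an importer of the plasma membrane, had 37.8, 30.3 and 33.0 CPM, and Slc30a1, the zinc exporter of the plasma membrane and not a member, 4.47, 2.74 and 4.36 CPM. The ratio of Slc39a1 to Slc30a1 was 8.47, 11.1 and 7.57, with an exact 95% interval of the pooled ratio of 6.39 to 12.6. The other members of family 39, among them the importers Slc39a10, Slc39a14 and Slc39a8, lay between 6.71 CPM (Slc39a3) and 40.0 CPM (Slc39a11). Those of family 30 lay between 27.1 CPM (Slc30a5) and 35.9 CPM (Slc30a9). The metallothioneins Mt1 and Mt2, which bind zinc in the cytosol, had 604 ± 28.2 CPM and 189 ± 11.2 CPM (SD, n = 3). The magnesium carriers Slc41a1 and Slc41a2 had 12 ± 0.694 CPM and 7.61 ± 0.967 CPM (SD, n = 3).

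Carriers of nucleotide sugars (family 35), which feed glycosylation and sulfation in the endoplasmic reticulum and Golgi, were represented by 16 of 23 symbols considered. Slc35b2, which imports the sulfate donor PAPS into the Golgi, had 208, 198 and 204 CPM, Slc35b1, which brings ATP into the endoplasmic reticulum, 113, 121 and 124 CPM, and Slc35a4 88.1, 76.1 and 81.0 CPM. Slc35b2 was the highest of the family in every library, with no overlap with Slc35b1. Slc35a1, for CMP-sialic acid, had 52.4 ± 2.61 CPM, Slc35a3, for UDP-N-acetylglucosamine, 25.6 ± 2.66 CPM, Slc35a2, for UDP-galactose, 12.1 ± 1.04 CPM, and Slc35c1, for GDP-fucose, 6.20 ± 0.530 CPM (SD, n = 3). The other members, among them Slc35c2 and Slc35e4, lay between 8.72 CPM (Slc35b4) and 74.0 CPM (Slc35c2).

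Of the carriers of other organic solutes Slc29a1 (ENT1), the equilibrative nucleoside carrier, was the highest with 174, 168 and 188 CPM. Its relative Slc29a2 (ENT2) had 27.9 ± 1.32 CPM (SD, n = 3). Slc10a3 had 39.9, 44.0 and 36.4 CPM and Slc27a1, which takes up long-chain fatty acids, 30.7, 41.8 and 31.5 CPM, with its highest level in replicate 2. Slc52a2, for riboflavin, had 16.7, 16.7 and 26.8 CPM, highest in replicate 3. Slc33a1, which brings acetyl-CoA into the endoplasmic reticulum, had 12.8 ± 1.16 CPM, Slc17a5, which exports sialic acid from lysosomes, 14.4 ± 2.40 CPM, and Slc23a2, for ascorbate, 7.35 ± 0.454 CPM (SD, n = 3). Slc46a1, the proton-coupled folate carrier, had 9.22 ± 1.33 CPM, and Slc27a4, for long-chain fatty acids, 14.1 ± 1.81 CPM (SD, n = 3). The rest of the class lay between 7.39 CPM (Slc18b1) and 22.6 CPM (Slc49a4). The choline carriers Slc44a1 and Slc44a2 stood at the bottom of all members, and each was under 5 CPM in replicate 3.

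Carriers of ions had the lowest class median, 11.5 CPM. Slc24a5, known as a sodium-calcium exchanger of melanosomes, led the class at 28.0, 28.9 and 34.3 CPM (chromosome 2, 125068127 to 125088677). Its count is uncertain, since all 500 last bases of its annotated transcripts lie within an exon of Myef2 on the opposite strand. Myef2 had 53.0, 56.7 and 60.1 CPM, and it is unknown whether counting used strand, so reads of these genes cannot be told apart. The bicarbonate carrier Slc4a7 had 27.7, 23.4 and 25.9 CPM and Slc12a2 (NKCC1), which brings in sodium, potassium and chloride, 21.1, 18.7 and 19.0 CPM. The phosphate importers Slc20a2 and Slc20a1 had 16.2 ± 2.04 CPM and 12.1 ± 2.51 CPM, and the organellar sodium-proton exchanger Slc9a8 11.5 ± 2.30 CPM (SD, n = 3). The potassium-chloride exporters Slc12a4 and Slc12a7 stood at 7.15, 14.7 and 9.97 CPM and 8.34, 11.7 and 9.03 CPM, both highest in replicate 2. The anion exchanger Slc4a2 had 10.7 ± 1.31 CPM and Slc8b1, the mitochondrial sodium-calcium exchanger, 6.57 ± 2.44 CPM (SD, n = 3). Sodium uptake through many carriers depends on the sodium pump, whose beta subunits Atp1b3 and Atp1b1 had 222 ± 10.2 CPM and 16.5 ± 3.28 CPM (SD, n = 3). Of the members that are no carriers, Slc4a1ap had 55.1, 58.7 and 65.7 CPM, Slc7a6os 20.5, 29.1 and 35.2 CPM and Slc9a3r2, a scaffold of membrane proteins, 8.63, 12.9 and 11.2 CPM. Slc7a6os was lowest in replicate 1.

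The spread between the parental libraries was tested for every gene with at least 5 expected counts in each, by a chi-square test on counts. P-values were adjusted by Benjamini-Hochberg over all 11118 genes tested, and the test compares libraries and not conditions. By this test 0 of 121 members varied at an adjusted p below 0.05, against 311 of all genes tested, 2.80%. At an unadjusted p below 0.05 there were 20 of 121 members (16.5%), against 13.2% of all genes tested. Pairwise exact binomial tests called 0 of 121 members, against 289 of all genes tested, 2.60%. At an unadjusted p below 0.05 these tests gave 14 members (11.6%), against 11.5% of all genes tested. The power of the test grows with the count. On simulated counts it recovered 32% of changes of 1.5 times and 65.5% of changes of 2 times, so differences of that size can be missed. Members had a median of 240 counts over the 3 libraries, against 235 for all genes tested.

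The lowest adjusted p-values of members by the chi-square test were 0.0653 for Slc7a6os, 0.0668 for Slc25a30, 0.0829 for Slc52a2, 0.0865 for Slc48a1, 0.0896 for Slc6a9 and 0.12 for Slc38a2. Slc25a30, a mitochondrial carrier, had 14.6, 21.9 and 11.5 CPM, highest in replicate 2, and the glycine carrier Slc6a9 4.76, 4.48 and 10.3 CPM, highest in replicate 3. Leaving out 1 library changed the count of calls. Without replicate 2, Slc38a2 and Slc7a6os differed between the remaining libraries, with adjusted p-values of 0.0279 and 0.0312 by the chi-square test. These were 2 of 121 members (1.65%), against 274 of 11063 genes tested, 2.48%. Without replicate 1, Slc25a30 differed, with an adjusted p of 0.0467 by the same chi-square test, which is 1 of 121 members (0.826%), against 213 of 11090 genes tested, 1.92%. Without replicate 3, 0 members were called by that test, against 61 of 11126 genes, 0.548%. At an unadjusted p below 0.05 the same setting gave 10 members (8.26%), against 926 of all genes tested (8.32%). At an adjusted p below 0.05 the share of members called was in none of these settings above that of all genes tested. At an unadjusted p below 0.05 it was 12.4% against 11.8% without replicate 1 and 13.2% against 12.2% without replicate 2. Of the 20 members at an unadjusted p below 0.05, replicate 3 was the farthest from the median library in 11, replicate 1 in 6 and replicate 2 in 3.

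Highest and lowest library differed by at least 2 times in 6 members, Slc39a9, Slc12a4, Slc35b4, Slc8b1, Slc6a9 and Slc44a1, all of which averaged under 12 CPM. A mean of 5 CPM or more was reached by all members, but 116 of 121 stood at 5 CPM or more in each library. At 100 CPM or more no member exceeded a ratio of 1.18, which was that of Slc48a1. The SD over libraries was above the SD that counting alone gives in 60 of 121 members, 49.6%, against 49.4% of all genes at 5 CPM or more. The share that counting error alone would give was not computed, so these shares do not show that the spread was limited to counting. The biological coefficient of variation, the spread left after counting error, was 0.0385 for members and 0.0560 for all genes at 5 CPM or more, both as a common value from edgeR. It was 0.0374 and 0.0676 without replicate 1, 0.0536 and 0.0700 without replicate 2, and 0.0256 and 0.0312 without replicate 3, in each case for members and for all genes at that level.

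**Figure D5:**
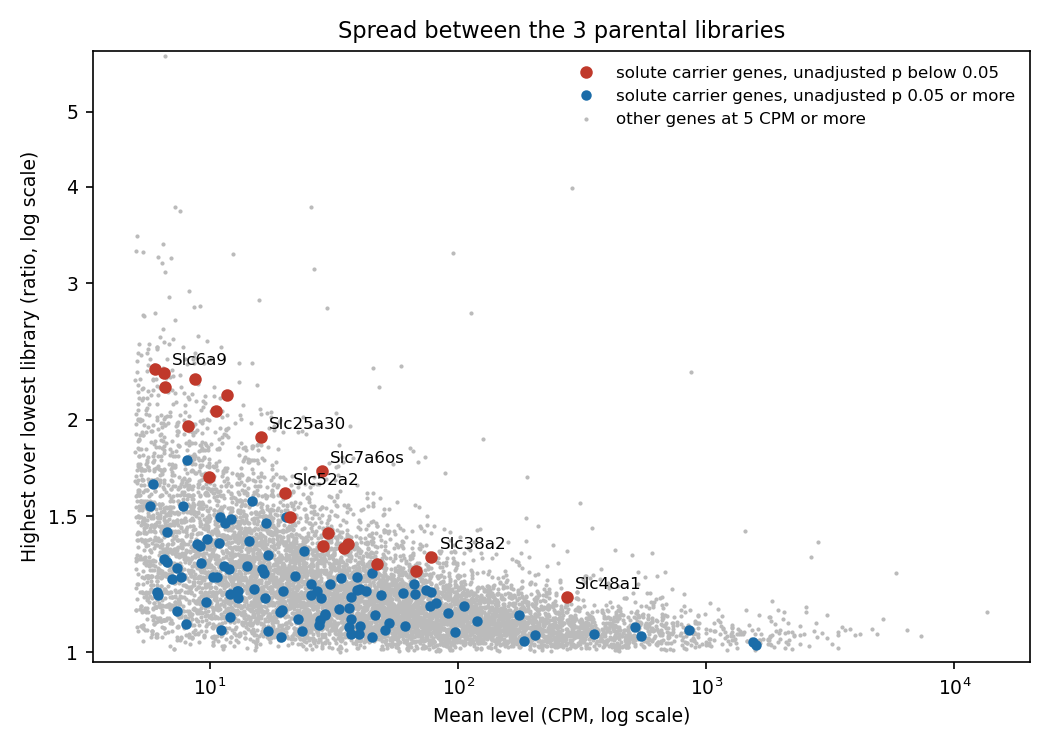
Ratio of the highest to the lowest parental library against mean level (both log scales) for members and for all other genes at 5 CPM or more; 5 of the other genes lie above the plotted range, which ends at 6. Red members have an unadjusted p below 0.05 in the chi-square test on counts, and 0 of 121 passed the adjustment over all genes.

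Ends of members were also compared with the annotation, since a 3′ count can be shared there. Of the 119 members found, the last 500 bases of 0 overlapped an exon on the same strand and those of 6 overlapped one on the opposite strand. These were Slc24a5, Slc29a1, Slc48a1, Slc6a9, Slc44a1 and Slc25a26, whose counts are uncertain to that extent, although for Slc48a1 the overlap with Hdac7 was 29 bases. Stretches of 50 bases shared with other genes were found in 13 members, and in 0 of them did they make up 50% or more of the end.

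Upstream sequence was compared as a feature that the rule did not use. RefSeq starts on GRCm38.p6 were matched for 96 of 121 members, with 134 windows of 250 bases before a start. A start can lie within the span of a gene, and a gene with several starts enters the shares with several windows. In 112 of the 134 windows, bases after the start were found in a GENCODE M21 transcript of the same gene. The other windows were kept. Motifs were searched on both strands. They were CACGTG (the E-box of MYC and USF proteins), GCNTGCGC (the core of the NRF1 site) and TGATGNAA (the element of ATF4). The last was TGCGCNC, a form of the core of the metal response element, whose other forms were not searched. A TGCGCNC match can overlap a GCNTGCGC match. CACGTG was found in 14.2% of the members' windows, against 9.0% of windows of all genes at 5 CPM or more and 6.02% of all 32851 windows. It was in those of Slc16a1, Slc25a1, Slc25a33, Slc25a13, Slc29a1 and Slc27a1 among others, 18 members in all. TGCGCNC was found in 21.6% of the members' windows, against 23.2% at that level and 12.5% of all, and GCNTGCGC in 11.9%, against 18.6% and 8.30%. TGATGNAA was in 1.49% of the members' windows, against 1.71% and 3.45%. The median GC content was 60.8% in the members' windows, 60.8% at 5 CPM or more and 52.4% in all windows. These shares are descriptions of letters in the reference and were not tested.

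The genes listed as partners of carriers were counted widely. Of 29 listed, 28 were analysed and 26 had a mean of at least 5 CPM, with a median of 109 CPM, and 14 had at least 100 CPM. Of the 27 tested by the chi-square test with Benjamini-Hochberg adjustment over all genes, 1 varied between the libraries, Bsg. Mtch2 and Mtch1, relatives of family 25 in the outer mitochondrial membrane, had 319.9 ± 11.6 CPM and 296 ± 15.5 CPM (SD, n = 3). The sideroflexin Sfxn1, a mitochondrial serine carrier, had 118 ± 8.11 CPM, and its relatives Sfxn2, Sfxn3, Sfxn5 and Sfxn4 had 20.5, 10.4, 2.55 and 1.10 CPM (SD for Sfxn1, n = 3).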

How the data were processed

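Gene counts were deposited as whole numbers. Per the file headers the authors ran SCRB-Seq reads, untrimmed, through Drop-seq tools 1.12 and Picard 2.18.26 with the aligner STAR 2.7.5b, against GRCm38 and GENCODE M25. Collapsing of molecular identifiers, multi-mapping reads and strand are not given in the sources used here. Intervals, floors and count tests cover counting error only, and do so only if each count is a separate molecule.

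Columns annotated as wild type by the authors were tied to the parental samples through genotype and replicate number. The other 6 columns, which the annotation names as 2 sets of 3, could not be tied to the 3 STING-N153S samples and were not used, so the planned edgeR comparison was not run.

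CPM is the count over the library total. Variation was tested by chi-square with median-ratio scaling, for genes with at least 5 expected counts, at a false discovery rate of 0.05. The procedure was tested on simulated counts with counting error only, in which some genes were changed in a single library. It recovered 32% of changes of 1.5 times, 65.5% of 2 times and 86% of 4 times. Of its calls, 4.48% to 6.01% were false. The biological coefficient of variation is the square root of the common dispersion from edgeR. Ends were compared with GENCODE M21 on GRCm38, in which 119 of 121 members were found. Upstream sequences and gene positions are from RefSeq on GRCm38.p6. Named genes are the 5 highest members of the amino acid, sugar, metal and mitochondrial classes, the 3 highest of other classes, the 10 highest of all, those at the threshold and planned pairs and partners; other members were named for their roles after their values were seen. Members, pairs and lists were chosen with earlier results of these data known, and the motifs, the comparison of ends and the class of Slc49a4 after the table was seen. The NRF1 motif was shortened from a longer form after the shares of that form were seen. Tools were R 4.3.3, edgeR 4.0.16, Python 3.11.15, scipy 1.17.1, statsmodels 0.14.6 and matplotlib 3.10.9. Some members and partners are not reported here by name.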

Additional observations from a re-analysis of the deposited data

How the results depend on the processing

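The number of members called as varying between parental libraries was 0 under library totals, TMM, upper quartile, expected counts of at least 1 or 20, pairwise exact binomial tests, and, in alternatives added after the data were seen, without carrier-associated symbols or without histone genes. Of all genes tested, 1.90% to 3.81% were called under these settings. Leaving out 1 library gave 0 to 2 members, against 61 to 274 of all genes. The number of members, 121, was 145 at a minimum mean of 2 CPM, 96 at 10 CPM, 116 with 5 CPM in each library, 123 with library totals without the 20 highest genes, 118 without carrier-associated symbols, and 120 to 123 with 1 library left out. The members' share of counts, 0.938%, was 1.03% with library totals without the 20 highest genes, a change that raises every share left in, and 0.933% to 0.945% with 1 library left out. With 1 library left out the mean ratios ran from 34.9 to 41.1 (Slc2a1 over Slc2a3), 10.5 to 11.0 (Slc16a3 over Slc16a1), 8.02 to 9.78 (Slc39a1 over Slc30a1), 1.45 to 1.68 (Slc38a2 over Slc1a5), 1.20 to 1.34 (Slc7a6 over Slc7a5) and 1.02 to 1.04 (Slc25a4 over Slc25a5). Of the levels of 46 named genes, 29 moved by more than 1 SD with library totals without the 20 highest genes and 0 with TMM. Leaving out 1 of 3 libraries cannot move a mean by more than 1 SD, so that setting is no check of these levels. No paired analysis was possible because a single group was analysed, and the alternatives planned for STING-N153S against parental cells were not run either. Depth limits the test for members with few counts, of which the lowest had 62 over the 3 libraries.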

Other observations

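Of the 256 Slc symbols considered, 135 were below the minimum: 97 had a count and 38 had none, and a count of 0 allows a mean of up to 0.283 CPM (3 counts, counting error only). Families without a member included 22 (organic cations and anions, 8 symbols), 26 (anion exchangers, 5 symbols) and 13 (sulfate and dicarboxylates, 2 symbols). Only symbols present in the deposited counts are counted here. Some genes known from transport epithelia or from single organs were among those with few or no counts, and were picked after their values were seen. No fixed list was searched, and carriers of such tissues among the members are not counted here. The genes named next therefore do not describe such carriers as a set. Slc5a1, the sodium-glucose carrier of the intestine, had 0, 0 and 1 counts, Slc9a2, a sodium-proton exchanger of epithelia, 2, 0 and 0 counts, and Slc12a3, the thiazide-sensitive carrier of the kidney, and Slc39a4, the zinc importer of the intestine, had 0 counts in all 3 libraries. Slc40a1 (ferroportin), the iron exporter, had 0, 0 and 1 counts, beside 225, 240 and 235 counts of the iron importer Slc11a2. Slc25a39 and Slc25a40 are related in sequence and had 352 ± 9.77 CPM and 8.06 ± 2.23 CPM (SD, n = 3), and 28.7% of the 50-base stretches of the end of Slc25a40 also occur in another annotated gene.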
